A study of Mus musculus with 4 samples.

Results

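The genes that brake and drive the G1 phase were followed in mouse mammary organoids, namely the 7 cyclin-dependent kinase (CDK) inhibitor genes Cdkn1a, Cdkn1b, Cdkn1c, Cdkn2a, Cdkn2b, Cdkn2c and Cdkn2d, the retinoblastoma gene Rb1, and the D-type cyclin genes Ccnd1 and Ccnd2. They were chosen by name, with earlier results of these data known, and all 10 were among the 32285 genes counted. The organoids came from mice with a germline truncating mutation in 1 copy of Brca2 (Brca2mut/WT) or from wild-type mice, aged 9 to 11 months, and grew from single mammary cells in Matrigel. They were left untreated (control) or exposed to hydroxyurea (HU), a drug that stalls DNA replication, at 1 mM for 24 h with 4 days of recovery, a cycle repeated at each of 5 serial passages. Cryopreserved organoids of passage 0 and passage 4 were thawed, cultured for 3 days and dissociated, and the single cells of each condition were captured as 1 droplet library. The Brca2 mutation is present in every cell of the Brca2mut/WT mice, so the stroma and epithelium from which the cultures were started carried it alike.

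CDK inhibitors restrain the kinases that take a cell out of G1. D cyclins activate CDK4 and CDK6, which phosphorylate the retinoblastoma protein (pRb) and free E2F factors to switch on the genes of DNA replication. The Ink4 proteins (from Cdkn2a, Cdkn2b, Cdkn2c and Cdkn2d) bind CDK4 and CDK6, whereas the Cip/Kip proteins p21 (Cdkn1a), p27 (Cdkn1b) and p57 (Cdkn1c) bind complete cyclin and CDK complexes, and p21 is a classical target of p53 after DNA damage. In the mammary gland, cyclin D1 is needed for the growth of the alveoli, and p16 and p21 are known as proteins of ageing and stressed epithelium.

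The 4 libraries held 243430259 to 302135155 gene UMIs (unique molecular identifiers, each counted once per captured RNA molecule) in 7639 to 9358 barcodes. Of 33268 barcodes in all, 17360 cells were kept, with a median of 24180 to 26893 UMIs per library, and 129 barcode sequences occurred in 2 or more libraries. Cells were sorted into lineages by 2 genes, the basal keratin Krt14 and the hormone-responsive ligand Areg: 2217 basal cells, 569 hormone-receptor-positive (HR+) luminal cells and 14008 hormone-receptor-negative (HR-) luminal cells. Other markers followed the lineages, since 7 basal genes summed to 3849 to 4422 CPM (a gene's counts per 1000000 gene UMIs of the lineage) in basal cells and to at most 159 CPM in the others. The 5 HR- luminal markers summed to 4660 to 5726 CPM in HR- luminal cells, against 599 to 1019 CPM elsewhere, and the 6 HR+ markers to 1506 to 1727 CPM in HR+ cells. HR+ cells also held the stromal gene Dcn at 702 to 1661 CPM, while Col1a1 was at most 0.24 CPM and Col3a1 at 0 there, and the immune gene Ptprc was at 0 in these sums.

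Each condition was 1 library, so conditions could not be tested against each other. Runs of 4 values are given for wild type untreated and after HU, then for Brca2mut/WT untreated and after HU. The 95% intervals below cover counting error only, and "past the fold" means at least 1.5-fold either way. Each library also carried 4 antibody tags, and 15472 cells had a single tag. The labels do not say which passage, 0 or 4, a library or tag holds, so each value after HU may come from cells after 1 exposure, after several, or from a mixture, and a ratio of HU to control may also set different passages side by side. No key links a tag to a mouse either, and the labels give 2 replicates per library where 3 mice per condition are described for the study. The cells with each tag were therefore treated as unlabelled pools that show the spread within a library. Pools with the same tag in 2 libraries are set side by side below, but nothing states that they are the same mouse or passage.

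The members differed in the lineage where they were highest (plot of levels by lineage). Of the 10 members, 7 had the same highest lineage in all 4 libraries, a share near that of all genes, 60.8% of 9885. HR+ luminal cells were highest for Cdkn1a, Cdkn2a, Cdkn2d and Ccnd1, as they were for 26.8% of genes. For Cdkn2d the HR+ and basal counting intervals were apart in the wild-type control alone, and elsewhere overlapped at 1.13-fold to 1.24-fold. HR- luminal cells were highest for Rb1 and Cdkn2c (17.8% of genes), and basal cells for Ccnd2 (16.2% of genes). The order of Cdkn1b, Cdkn1c and Cdkn2b changed between libraries. Within the 6 tag pools that had at least 20 cells of every lineage, only Cdkn2c, Cdkn2d, Rb1 and Ccnd2, or 4 of 10 members, kept a single highest lineage, again near the share of all genes (35.7%). In untreated wild type, tags 2 and 4 were 24.4% and 52.1% of single-tag HR+ cells and 5.17% and 10.6% of HR- luminal cells. In Brca2mut/WT HU they were 11.8% and 80.3% against 16.9% and 5.32%. By pool, Cdkn1a was highest in HR+ cells with tag 4 of both wild-type libraries and of the Brca2mut/WT control. In HR- luminal cells it was highest with tag 4 of Brca2mut/WT HU (560 against 312 CPM in HR+ cells). The same held with tag 2 of wild type, narrowly in control.

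**Figure D1:**
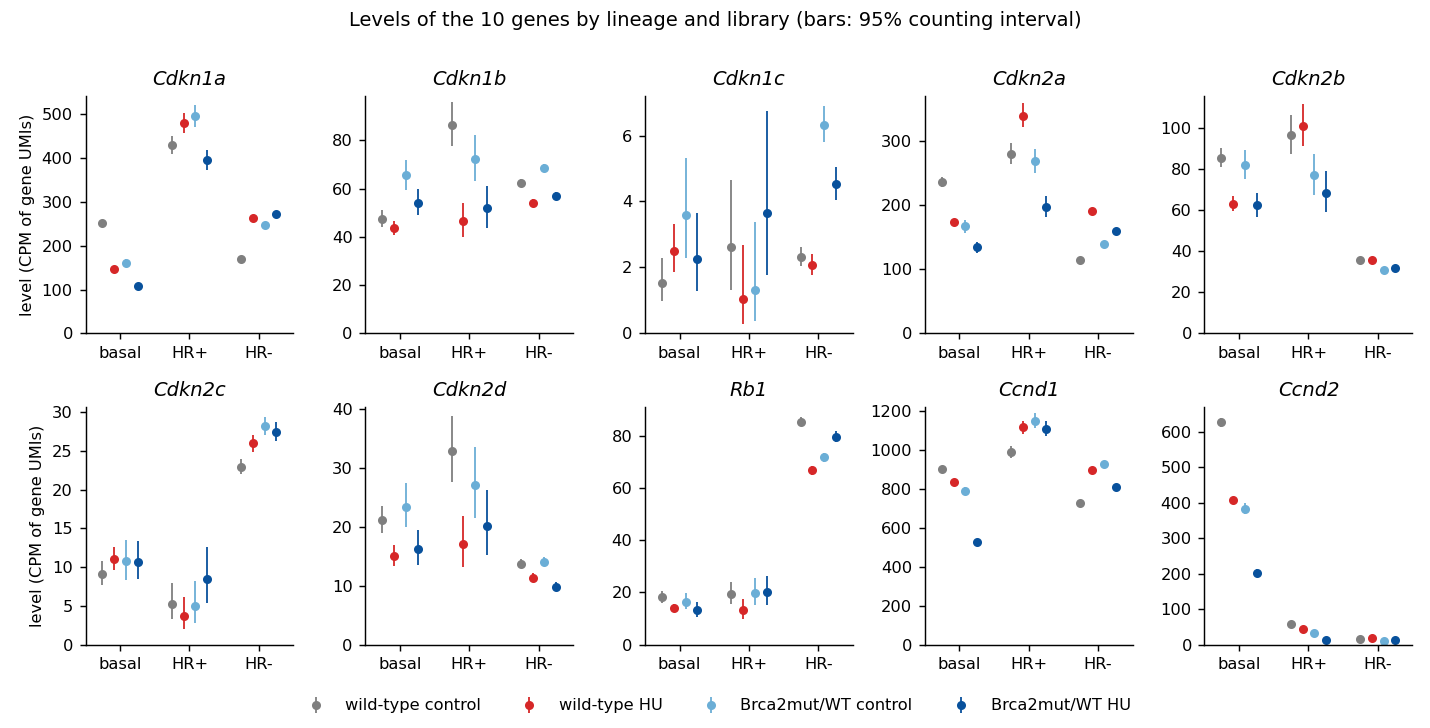
Level of each of the 10 genes (CPM, linear axis with its own scale for each gene) in basal, HR+ luminal and HR- luminal cells of the 4 libraries, with 95% counting intervals. Ccnd2 stood at 202 to 626 in basal cells and at most 57.6 elsewhere, and Rb1 at 66.9 to 85.4 in HR- luminal cells and at most 20.1 elsewhere.

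Cdkn1a encodes p21 (ENSMUSG00000023067, GRCm38 chr17:29090976-29100727, plus strand). The bases before its first RefSeq start site (chr17:29090729-29090975 of GRCm38.p6, plus strand) are shown because they hold the pair of CATG cores of a p53 site, in capitals. The search took CATG followed by CATG with starts 10 bases apart, on both strands; the pair began 48 bases before the start, and 161 of 32851 windows of 250 bases before RefSeq starts held them (0.49%). The window before the second RefSeq start of Cdkn1a (chr17:29093519-29093768) held no such pair. The 48 bases count from the RefSeq start, and the stretch shown has 247 of the 250 bases, since those inside the annotated exon were trimmed. A match is a description of the letters and not of binding.
Cdkn1a, first start: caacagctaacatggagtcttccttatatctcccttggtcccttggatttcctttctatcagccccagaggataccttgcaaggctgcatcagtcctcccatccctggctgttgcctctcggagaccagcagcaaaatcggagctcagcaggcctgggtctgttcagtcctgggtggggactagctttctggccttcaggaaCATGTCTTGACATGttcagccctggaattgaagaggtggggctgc

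Cdkn1a was lower after HU in basal cells and higher after HU in HR- luminal cells. Basal cells of wild type held 252 CPM untreated and 147 CPM after HU, and those of Brca2mut/WT 160 CPM untreated and 108 CPM after HU. The log2 ratio of HU to control was -0.78 (interval -0.85 to -0.71) in wild type, or 1.71-fold lower, and -0.57 (-0.71 to -0.44) in Brca2mut/WT. Among HR- luminal cells the untreated wild type was the lowest in these sums, with 171 CPM, against 263 CPM after HU. Brca2mut/WT held 246 CPM untreated and 272 CPM after HU. By tag pool, the wild-type control was below the Brca2mut/WT control for tags 1 and 2 (123 against 153 and 325 against 500 CPM). For tags 3 and 4 it was above (136 against 120 and 359 against 318 CPM). The HR- luminal log2 ratio was 0.62 (0.59 to 0.65) in wild type and 0.14 (0.11 to 0.17) in Brca2mut/WT. HR+ luminal cells held 429, 480, 496 and 395 CPM in the same order of libraries, higher after HU in wild type (log2 ratio 0.16) and lower in Brca2mut/WT (-0.33).

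The tag pools showed how much of this lay within a library (plot of tag pools). In untreated wild-type HR- luminal cells, the pools with tags 1, 2, 3 and 4 held Cdkn1a at 123, 325, 136 and 359 CPM, and the HU pools at 164, 446, 187 and 477 CPM. The Brca2mut/WT control pools held 153, 500, 120 and 318 CPM, and the Brca2mut/WT HU pools 202, 556, 185 and 560 CPM. Tags 2 and 4 were above tags 1 and 3 in all 4 libraries, so the pools of HU and control overlapped. Each HU pool was above the control pool with the same tag in 4 of 4 pairs in both genotypes. Of all genes, 32.1% in wild type and 33.4% in Brca2mut/WT went 1 way in every such pair. The same shares stand beside the counts of HR- luminal pairs given below for other members. The log2 ratios of the Cdkn1a pairs lay between 0.41 and 0.46 in wild type and between 0.15 and 0.82 in Brca2mut/WT. With the 4 pools given equal weight, the HR- luminal ratio was 0.43 in wild type, no longer past the fold, and 0.46 in Brca2mut/WT.

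The make-up of the libraries also differed, and not always in the direction of Cdkn1a. After HU, tag 2 made up more of the wild-type HR- luminal cells and tag 4 less. In Brca2mut/WT both made up less, while the Cdkn1a sum was higher. Pools with tags 2 and 4 made up 5.17% and 10.6% of the single-tag HR- luminal cells of untreated wild type and 18.5% and 8.0% after HU, and in Brca2mut/WT 21.9% and 13.3% untreated and 16.9% and 5.32% after HU. The same pools had HR- luminal marker sums of 1943 to 4438 CPM, against 5633 to 6404 CPM for tags 1 and 3, and a median of 26636 to 30159 UMIs, against 23782 to 28849. Their G2/M cells were 5.18% to 12.4% of the pool, against 1.68% to 4.31% for tags 1 and 3. The part of these differences in the Cdkn1a ratio was not tested beyond the equal weighting.

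In basal cells, all 4 wild-type control pools (150, 258, 207 and 276 CPM) were above all 4 HU pools (141, 148, 114 and 150 CPM), the highest HU pool lying just under the lowest control pool. For tag 1 the difference was small, at a log2 ratio of -0.10. The Brca2mut/WT basal pools with tags 1, 3 and 4 held 140, 111 and 200 CPM in control and 73.4, 47.9 and 179 CPM in HU, lower after HU in each same-tag pair but with overlapping ranges. Of all genes, 6.37% had wild-type basal pools of HU and control that did not overlap. In basal same-tag pairs, 28.0% of genes in wild type and 34.0% in Brca2mut/WT went 1 way in every pair.

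The share of HR- luminal cells with a Cdkn1a UMI followed the same order. With every cell thinned to 5000 UMIs, it was 33.8% untreated and 45.2% after HU in wild type, and 41.8% and 45.8% in Brca2mut/WT, after 124, 122, 288 and 198 shallower cells were left out. Unthinned, the shares were 63.5%, 70.0%, 67.0% and 71.5%. The basal transcript Krt5, which HR- luminal cells should lack, was found in 15.6%, 12.8%, 6.05% and 7.64% of the same thinned cells, at median depths of 24718, 24963, 24989.5 and 27595.5 UMIs before thinning.

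**Figure D2:**
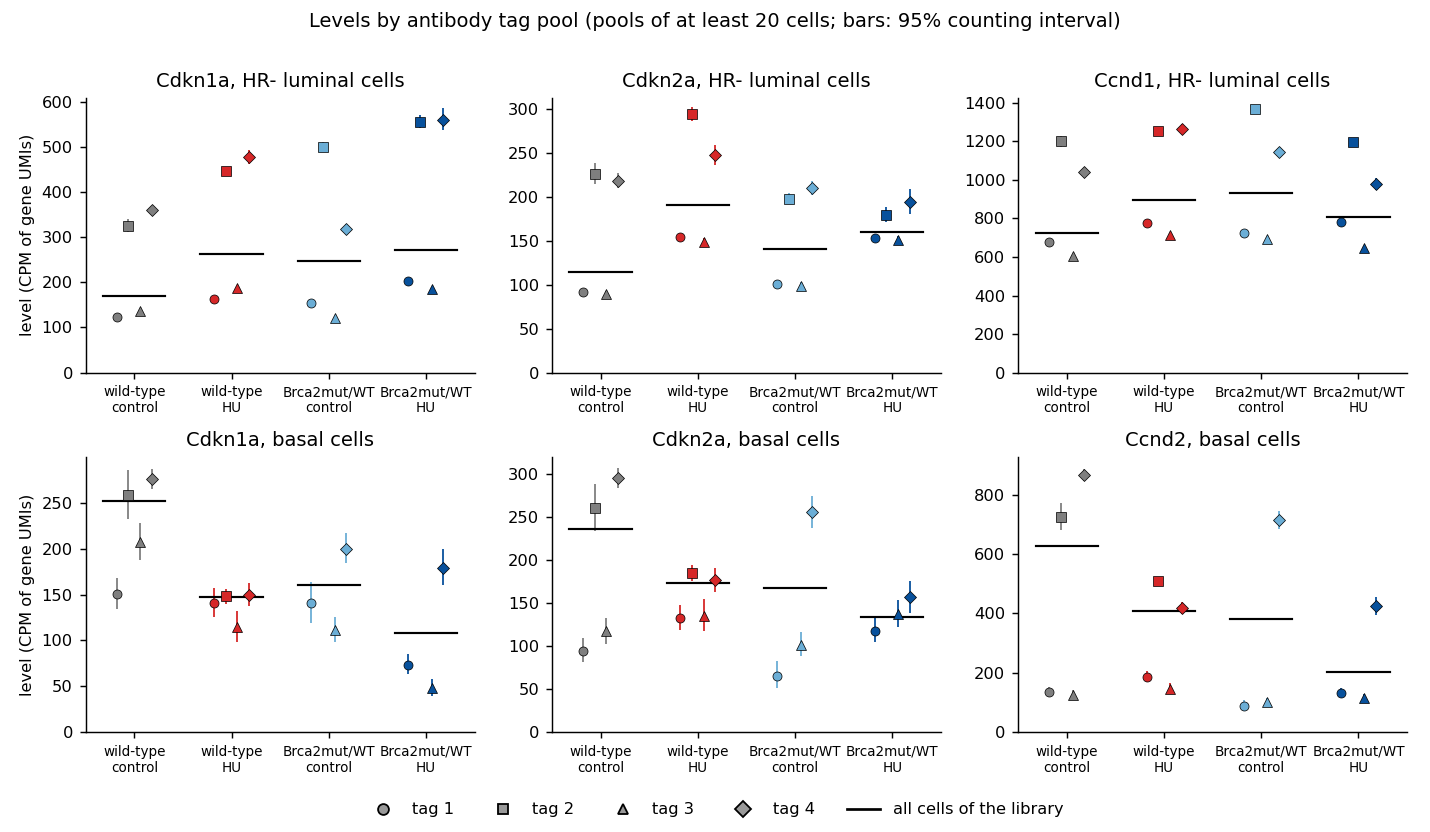
Level (CPM) of Cdkn1a, Cdkn2a and Ccnd1 in HR- luminal cells and of Cdkn1a, Cdkn2a and Ccnd2 in basal cells, in each antibody tag pool of at least 20 cells, with 95% counting intervals and a black line for all cells of the library. In HR- luminal cells the pools with tags 2 and 4 lay above those with tags 1 and 3 for all 3 genes, and Cdkn1a was higher in each HU pool than in the same-tag control pool.

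Cdkn1b, which encodes p27, the inhibitor that holds resting cells out of the cycle (ENSMUSG00000003031, chr6:134920401-134925513), was lower after HU in every lineage of both genotypes. Its HR- luminal level was 62.3 CPM untreated and 54.0 CPM after HU in wild type, and 68.6 and 57.0 CPM in Brca2mut/WT. The log2 ratios were -0.21 (-0.26 to -0.15) and -0.27 (-0.33 to -0.21), and in both genotypes the HU pool was the lower in 4 of 4 same-tag pairs. In Brca2mut/WT the control pools (60.0 to 74.5 CPM) did not overlap the HU pools (51.8 to 59.2 CPM), which was so for 2.76% of genes in that comparison. The largest difference was in HR+ luminal cells of wild type, 86.5 CPM in control and 46.7 CPM after HU (log2 ratio -0.89, -1.16 to -0.63), where the pools with tags 2 and 4 gave 75.0 and 82.9 CPM in control and 42.6 and 55.0 CPM in HU. HR+ cells of Brca2mut/WT held 72.2 and 52.0 CPM. In basal cells the wild-type interval included 0 (log2 ratio -0.12, -0.26 to 0.02).

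Cdkn1c, which encodes p57 (ENSMUSG00000037664, chr7:143458339-143461050), was near the limit of these counts, with 1.05 to 6.33 CPM over the 12 combinations of lineage and library, and in no lineage reached the mean of 5 CPM used as a filter. HR- luminal cells held 2.31 CPM untreated and 2.07 CPM after HU in wild type, and 6.33 and 4.53 CPM in Brca2mut/WT. A single pool of each Brca2mut/WT library accounted for much of the excess: tag 2 held 21.5 CPM in control and 15.2 CPM in HU. Tag 4 of Brca2mut/WT HU held 9.67 CPM, and the other 13 HR- luminal pools 1.44 to 3.90 CPM.

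The Cdkn2a locus (ENSMUSG00000044303, chr4:89274471-89294653, minus strand) makes 2 unrelated proteins, p16Ink4a, which inhibits CDK4 and CDK6, and p19Arf, which stabilises p53. Its annotated transcripts begin at different first exons and share 575 bases of exons 2 and 3, so counts taken at the 3' end could not tell them apart. The annotated genes Cdkn2a and Cdkn2b, the latter encoding p15, lie 11645 bases apart. The bases before both RefSeq starts of Cdkn2a are shown, minus strand, GRCm38.p6, because the starts differ in base composition. The window before the Arf exon (chr4:89294654-89294869) was 78.7% G and C and that before the p16 exon (chr4:89282193-89282442), within the intron of the Arf transcript, 60.0%, where the median of all windows was 52.4%. Capitals mark TTTCCCGC, an E2F motif, 99 bases before the Arf start. The letters searched on both strands were TTTCCCGC, TTTGGCGC, TTTCGCGC and TTTGCCGC, and 611 of 32851 windows (1.86%) held any of them.
Cdkn2a, Arf start: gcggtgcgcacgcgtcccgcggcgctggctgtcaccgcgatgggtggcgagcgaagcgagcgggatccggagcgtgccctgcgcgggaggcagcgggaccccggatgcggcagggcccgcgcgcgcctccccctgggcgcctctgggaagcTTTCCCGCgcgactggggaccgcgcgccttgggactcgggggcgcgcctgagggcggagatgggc
Cdkn2a, p16 start: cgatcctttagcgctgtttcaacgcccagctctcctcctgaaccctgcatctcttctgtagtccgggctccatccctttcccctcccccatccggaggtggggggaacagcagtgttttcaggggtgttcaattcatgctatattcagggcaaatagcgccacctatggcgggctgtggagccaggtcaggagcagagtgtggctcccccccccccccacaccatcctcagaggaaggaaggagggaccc

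HU and control differed in Cdkn2a in the same directions as in Cdkn1a in each lineage and genotype. The HR- luminal level was 115 CPM untreated and 191 CPM after HU in wild type, and 140 and 160 CPM in Brca2mut/WT, with log2 ratios of 0.73 (0.70 to 0.77) and 0.19 (0.15 to 0.23). The wild-type control was the lowest library in these sums, but the mean of its 4 tag pools (156 CPM) was above that of the Brca2mut/WT control pools (152 CPM). Basal cells held 236, 173, 167 and 134 CPM in that order, lower after HU in wild type (-0.44) and Brca2mut/WT (-0.32). HR+ luminal cells held 281 and 340 CPM in wild type (0.28), and 269 and 198 CPM in Brca2mut/WT (-0.45).

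The HR- luminal pools with tags 1 to 4 held Cdkn2a at 91.9, 226, 89.1 and 218 CPM in untreated wild type and at 154, 293, 148 and 247 CPM after HU, higher in 4 of 4 same-tag pairs. In Brca2mut/WT they held 101, 197, 98.7 and 209 CPM in control and 153, 179, 150 and 194 CPM in HU, higher for tags 1 and 3 and lower for tags 2 and 4. Equal weight for the pools gave log2 ratios of 0.43 in wild type and 0.16 in Brca2mut/WT, neither past the fold. In HR+ luminal cells of wild type the 2 pools moved oppositely, from 149 to 374 CPM for tag 2 and from 307 to 180 CPM for tag 4. In basal cells the wild-type pools were higher after HU for tags 1 and 3 and lower for tags 2 and 4, so the lower basal sum was not shared by the pools.

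Cdkn2b, whose product p15 is best known as a mediator of TGF-beta arrest (ENSMUSG00000073802, chr4:89306299-89311039), was lower in HR- luminal cells than in the other 2 lineages in all 4 libraries. HR- luminal cells held 35.9, 35.9, 31.1 and 31.9 CPM, and the log2 ratios of HU to control were 0.0017 (-0.068 to 0.071) in wild type and 0.037 (-0.045 to 0.12) in Brca2mut/WT. The pools were less even. Same-tag ratios ran from -0.34 to 1.53 in wild type and from -0.25 to 0.22 in Brca2mut/WT, with 3 of 4 higher after HU in each. The mean of the wild-type HR- luminal pools was 29.1 CPM in control and 35.5 CPM in HU. Basal cells held 85.6 CPM in the wild-type control and 63.3 CPM in HU, and 82.1 and 62.5 CPM in Brca2mut/WT (log2 ratios -0.44 and -0.39). All 4 wild-type basal control pools (76.6 to 88.2 CPM) were above all 4 HU pools (59.9 to 65.4 CPM), and 6.37% of genes showed such a separation in either direction. Cdkn1a and Cdkn2b were the 2 members with this separation in wild-type basal cells.

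Cdkn2c, which encodes p18 (ENSMUSG00000028551, chr4:109660876-109667189), was an inhibitor of HR- luminal cells, at 23.0 to 28.2 CPM there, 9.17 to 11 CPM in basal cells and 3.68 to 8.42 CPM in HR+ luminal cells. The HR- luminal level was 2.36 to 2.63 times the basal one in each library. HU and control differed little, with HR- luminal log2 ratios of 0.18 (0.094 to 0.26) in wild type and -0.036 (-0.12 to 0.051) in Brca2mut/WT. The HR+ ratio of Brca2mut/WT was past the fold (0.77) but rested on 15 and 23 UMIs, and its interval of -0.23 to 1.81 included 0.

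Cdkn2d, which encodes p19Ink4d (ENSMUSG00000096472, chr9:21288410-21291407), was lower after HU in all 3 lineages of both genotypes. Its HR- luminal level was 13.7 CPM untreated and 11.3 CPM after HU in wild type, and 14.0 and 9.80 CPM in Brca2mut/WT, with log2 ratios of -0.28 (-0.40 to -0.16) and -0.52 (-0.66 to -0.38). Basal cells held 21.2, 15.1, 23.4 and 16.3 CPM, and each basal HU pool was below the control pool with the same tag in both genotypes. The difference was greatest in wild-type HR+ cells, at 32.9 CPM in control (139 UMIs) and 17.1 CPM in HU (65 UMIs), a log2 ratio of -0.95 (-1.40 to -0.51). In Brca2mut/WT HR+ cells the interval included 0 (-0.43, -0.95 to 0.085). G2/M cells, the class where Cdkn2d was highest among HR- luminal cells, were 11.4% of wild-type HR+ cells in control (20 cells) and 5.48% after HU (8 cells). In Brca2mut/WT HR+ cells they were 2.42% and 6.50%. In basal cells, where Cdkn2d was also lower after HU, they were 8.89% and 13.4% in wild type and 6.88% and 7.19% in Brca2mut/WT. Ratios of all members were also taken in cells low in S and G2/M genes, where 44 of 54 moved by less than their interval. That of Cdkn2d is not listed here, so no part of its ratios is assigned to these shares. Of the HR- luminal pairs of pools, 2 of 4 went each way in wild type, whereas all 4 HU pools were lower in Brca2mut/WT.

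Ccnd1, the cyclin D1 gene (ENSMUSG00000070348, chr7:144929931-144939925), was abundant in every lineage. HR- luminal cells held 727 CPM untreated and 896 CPM after HU in wild type, but 930.4 and 809 CPM in Brca2mut/WT. These are opposite directions, with log2 ratios of 0.30 (0.29 to 0.32) and -0.20 (-0.22 to -0.19). The pools went the same way, higher after HU in 4 of 4 same-tag pairs in wild type and in 1 of 4 in Brca2mut/WT, and tags 2 and 4 (980 to 1371 CPM) were above tags 1 and 3 (604 to 780 CPM) in all 4 libraries. HR+ luminal cells held 991 to 1150 CPM with ratios of 0.17 and -0.05. In basal cells Ccnd1 was lower after HU, by a log2 ratio of -0.11 in wild type (903 and 837 CPM) and -0.58 in Brca2mut/WT (789 and 527 CPM), and the latter was -0.08 without the pools with tag 4.

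Ccnd2, the cyclin D2 gene (ENSMUSG00000000184, chr6:127125162-127152193), was a basal gene. Basal cells held 626 CPM untreated and 408 CPM after HU in wild type, and 383 and 202 CPM in Brca2mut/WT, 9.14 to 14.9 times the HR+ luminal level of the same library. HR- luminal cells held 10.8 to 18.1 CPM, or 2.60% to 6.26% of the basal level, and the basal markers Krt5 (0.771% to 1.24%), Krt17 (1.30% to 1.51%), Id4 (1.94% to 3.28%) and Pdpn (3.83% to 6.95%) were also found there. On this scale Ccnd2 was above Krt5, Krt17 and Id4 in all 4 libraries and above Pdpn in wild-type HU alone. It was below the remaining basal markers, Vim (10.8% to 13.8%), Trp63 and Acta2, in all 4 libraries. The share of Ccnd2 therefore lay within the spread of the basal markers. After thinning to 5000 UMIs, 3.51% to 5.83% of HR- luminal cells had a Ccnd2 UMI, and how much of this was free RNA from basal cells was not tested.

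The basal Ccnd2 sum was past the fold in both genotypes, with log2 ratios of -0.62 (-0.66 to -0.57) in wild type and -0.92 (-1.02 to -0.83) in Brca2mut/WT. The pools did not share that direction. Wild-type control pools with tags 1 to 4 held 134, 726, 126 and 866 CPM and HU pools 186, 509, 145 and 417 CPM, lower for tags 2 and 4 and higher for tags 1 and 3. The Brca2mut/WT pools with tags 1, 3 and 4 held 88.8, 101 and 714 CPM in control and 133, 114 and 424 CPM in HU, lower for tag 4 only. Without the pools with tag 4 the ratio was 0.26 in wild type and 0.058 in Brca2mut/WT. Those pools made up 54.7% of single-tag basal cells in the wild-type control and 21.6% in wild-type HU, and 40.8% and 24.5% in Brca2mut/WT. In HR+ luminal cells of Brca2mut/WT, Ccnd2 went from 33.6 to 13.5 CPM (102 and 37 UMIs, log2 ratio -1.31), and without the pools with tag 4 the ratio was -0.01.

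Rb1, whose protein is the target of the D cyclin kinases (ENSMUSG00000022105, chr14:73183673-73325822), was a gene of HR- luminal cells, at 66.9 to 85.4 CPM there and 13.1 to 20.1 CPM in the other lineages. HR- luminal cells exceeded the next lineage 3.63-fold to 4.81-fold in each library, and basal and HR+ cells had overlapping intervals. The margin was smaller within the 6 tag pools with at least 20 cells of every lineage. HR- luminal cells held 41.5 to 56.6 CPM there and the other lineages at most 24.5 CPM. Wild-type HR- luminal cells held 85.4 CPM untreated and 66.9 CPM after HU (log2 ratio -0.35, -0.40 to -0.31), while those of Brca2mut/WT held 71.8 and 79.6 CPM (0.15, 0.10 to 0.20). The pools did not follow either direction, with 2 of 4 same-tag pairs higher after HU in each genotype. Within the libraries Rb1 ran opposite to Cdkn1a, since tags 2 and 4 (41.5 to 64.9 CPM) were below tags 1 and 3 (67.0 to 103 CPM) in all 4 libraries. With equal weight for the pools the ratios were -0.17 and 0.05.

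Over the 10 members and 3 lineages, 8 of 30 pairs were past the fold in wild type, or 6 of the 27 that passed the filter, against 7.60% of gene and lineage pairs. In Brca2mut/WT 5 of 30 were, or 3 of the 27, against 7.24%. The backgrounds differed by lineage. Among HR- luminal cells 1.52% of genes were past the fold in wild type and 1.45% in Brca2mut/WT, and the members past it were Cdkn1a and Cdkn2a, both higher in wild type HU (0.577% of genes were that much higher), and none in Brca2mut/WT. In basal cells Cdkn1a and Ccnd2 were past it among 7.79% of genes in wild type, and Ccnd2 among 6.04% in Brca2mut/WT. In HR+ luminal cells, with 123 to 176 cells a library, Cdkn1b and Cdkn2d were past it in wild type (13.4% of genes) and Ccnd2 and Cdkn2c in Brca2mut/WT (14.1%), where the background was highest. The cell filter bore on these calls. With no upper limit on detected genes and under 10% mitochondrial UMIs, the wild-type ratios were 0.42 for Cdkn1a and 0.39 for Cdkn2a in HR- luminal cells, -0.42 for Cdkn1a in basal cells and -0.50 for Cdkn2d in HR+ cells, none past the fold. Each library held 1969 to 2376 barcodes above 6000 genes. Without the pools with tag 2, the HR- luminal ratio of Cdkn1a in wild type was also 0.42. The other pairs past the fold were Cdkn1c, which failed the filter. Of the basal ratios in Brca2mut/WT 10 of 10 were below 0 (44.6% of genes were), with a median of -0.46, and 8 of 10 in wild type (46.4% of genes), with a median of -0.41, where the median of all genes was 0.03 and 0.02. In Brca2mut/WT these included Cdkn1c, which failed the filter, and Cdkn2c, at -0.0083 with an interval across 0. The pools did not share the direction for each member there, since Cdkn2a and Ccnd2 were higher after HU in 2 of 3 same-tag pairs and Cdkn1a, Cdkn2d and Rb1 were lower in 3 of 3.

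**Figure D3:**
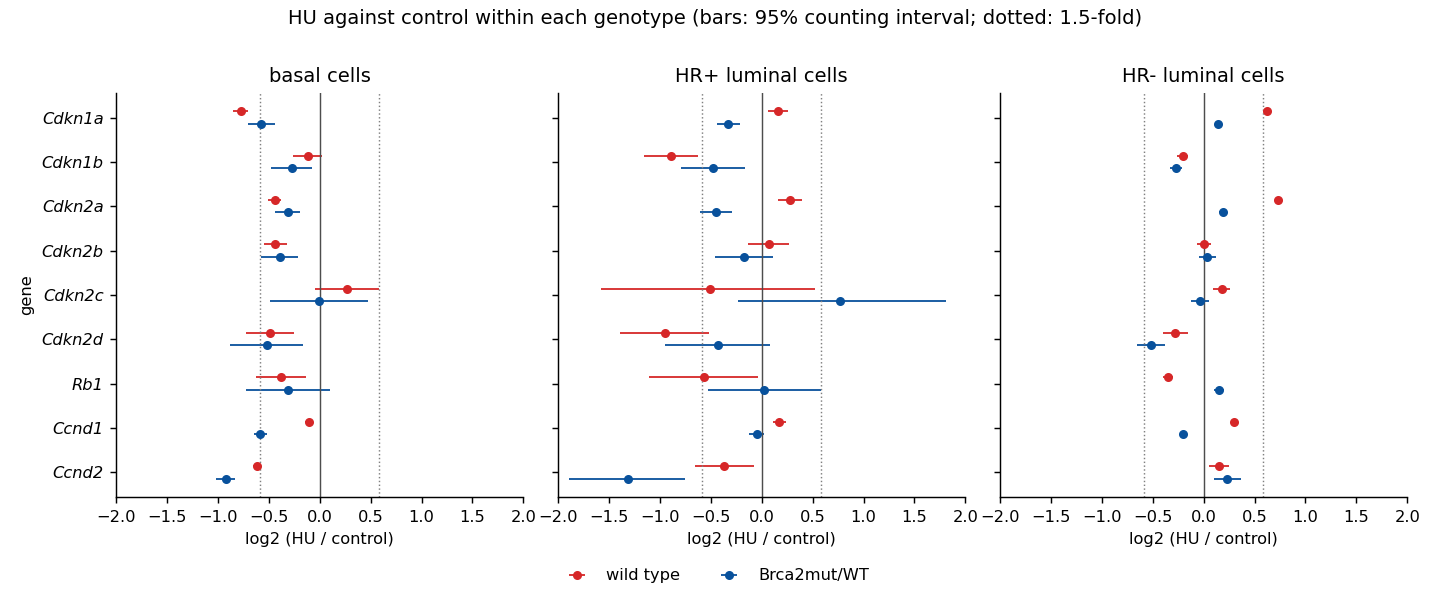
Log2 ratio of HU to control for 9 members (Cdkn1c is left out for its low counts) in the 3 lineages, wild type and Brca2mut/WT, with 95% counting intervals and dotted lines at 1.5-fold. In basal cells nearly all points lay at or below 0, and in HR- luminal cells the 2 points past the upper dotted line were Cdkn1a and Cdkn2a of wild type.

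Same-tag pairs of pools gave another view of the counts. Among wild-type HR- luminal pools, 4 of 10 members went 1 way in every pair (Cdkn1a, Cdkn2a and Ccnd1 higher, Cdkn1b lower), where 32.1% of genes did, and in Brca2mut/WT 3 of 10 (Cdkn1a higher, Cdkn1b and Cdkn2d lower), where 33.4% did. In basal cells of wild type Cdkn1a, Cdkn2b and Cdkn2d were lower in every pair (28.0% of genes went 1 way), and in Brca2mut/WT, with 3 pairs, Cdkn1a, Cdkn2d and Rb1 were (34.0%). These shares are close to those of all genes. The pools of HU and control did not overlap for 0 of 10 members in wild-type HR- luminal cells, where 7.73% of genes did not, nor for any member in Brca2mut/WT basal cells (10.0% of genes).

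The members also differed by cell cycle state in HR- luminal cells, which were split by their summed S genes and G2/M genes into 66 to 103 S cells, 140 to 199 G2/M cells and the rest (low) in each library. No member is in either gene list, and 326 of 14008 cells lay near a boundary. Cdkn2d was the most cycle-bound member. It stood at 10.1, 7.85, 9.53 and 7.55 CPM in low cells and at 89.8, 87.8, 102 and 66.0 CPM in G2/M cells, in the order untreated and HU of wild type and then of Brca2mut/WT, a log2 difference of 3.13 to 3.48, while S cells held 5.54 to 8.68 CPM. Cdkn2c was also higher in G2/M cells, by 0.76 to 1.18 on the log2 scale. These were the 2 of 9 members passing the filter that were at least 1.5-fold higher in G2/M cells of all 4 libraries, where 9.55% of genes were. With the cycle cutoffs halved, the G2/M ratio of Cdkn2c ran from 0.54 to 0.96, and it was then not 1.5-fold higher in each library.

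Cdkn1a, Cdkn1b, Cdkn2b and Rb1 were lower in S cells of all 4 libraries. Cdkn2b was below low cells by a log2 ratio of -1.78 to -0.70, the only member at least 1.5-fold lower in S cells of all 4 libraries (2.15% of genes), and Cdkn1a by -1.04 to -0.28. The direction of Cdkn1a rested on the cutoff, since with the cycle cutoffs doubled it ran from -0.85 to 0.25 and was higher in S cells in 2 of 4 libraries. With the doubled cutoffs Cdkn2b stayed lower in S cells of all 4 libraries, at -1.99 to -0.16, but was not 1.5-fold lower in each. Cdkn1b was lower in S cells (-0.52 to -0.24) and higher in G2/M cells (0.15 to 0.53). Rb1 was lower in both, at -0.56 to -0.35 in S cells and -0.65 to -0.30 in G2/M cells. Ccnd1 was higher in S cells, at 1093, 1150, 1484 and 1436 CPM against 716, 892, 901 and 787 CPM in low cells (0.37 to 0.87), and Cdkn2a followed no single direction in S cells (-0.65 to 0.14). G2/M cells were more frequent in the pools with tags 2 and 4, and with low cells weighted to the same pools the G2/M ratio of Cdkn2d was 3.18 to 3.61 and the S ratio of Cdkn1a -1.26 to -0.59. The S ratio of Cdkn2a was then below 0 in all 4 libraries, at -0.80 to -0.16.

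**Figure D4:**
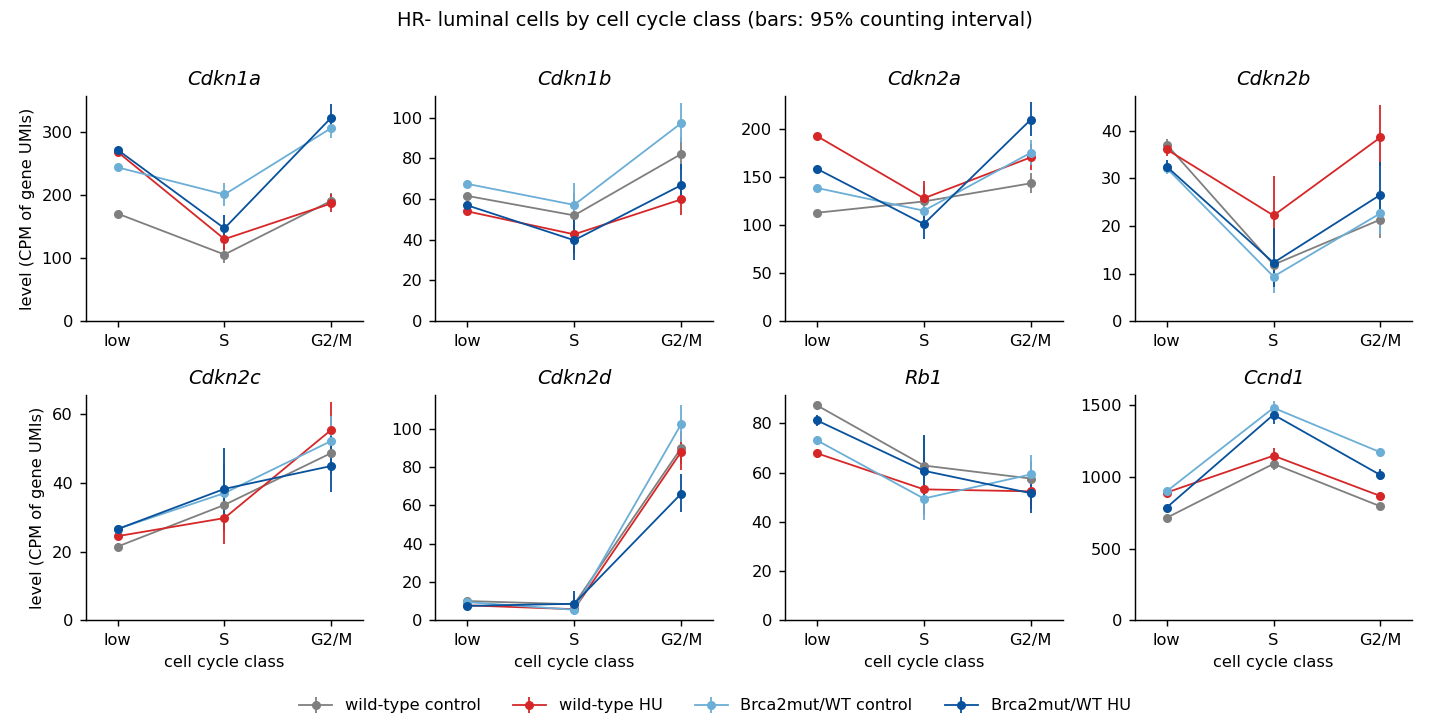
Level (CPM) of 8 members in HR- luminal cells low in cycle genes, in S cells and in G2/M cells of the 4 libraries, with 95% counting intervals. Cdkn2d stood at no more than 10.1 in low cells and at 66.0 or above in G2/M cells, and Cdkn2b was lowest in S cells in every library.

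The rest of the pathway was described with 4 lists, which were also chosen with earlier results of these data known. Of 19 genes listed as p53 targets, 15 passed the filter in HR- luminal cells. The list also held Trp53, the gene of p53 itself, which is counted with the targets here and in their sums. Trp53 passed, with HR- luminal log2 ratios of 0.21 in wild type and 0.07 in Brca2mut/WT. After HU, 12 of 15 were higher in wild type (52.6% of all genes were) and 11 of 15 in Brca2mut/WT (52.9%). The median log2 ratios of these targets were 0.27 and 0.19, against a median of 0.01 over all genes in each. Few were past the fold, where 1.52% of all genes were in wild type and 1.45% in Brca2mut/WT. They were Aen, a nuclease of apoptosis, at 9.08 and 16.7 CPM in wild type (0.88) and 0.62 in Brca2mut/WT, and Sesn2, a stress sensor, at 10.9 and 16.7 CPM in wild type (0.61). The p53 target sum was split by tag as Cdkn1a was, at 675 to 821 CPM for tags 1 and 3 and 1106 to 1623 CPM for tags 2 and 4. Among tags 2 and 4 the 2 did not run in the same order. The tag 2 pool of the Brca2mut/WT control held a sum of 1130 CPM with Cdkn1a at 500 CPM. That of wild-type HU held 1516 CPM with Cdkn1a at 446 CPM. Tag 2 made up 5.17% of single-tag wild-type HR- luminal cells in control and 18.5% after HU, and the list ratios were not weighted by pool. In basal cells 13 of 16 p53 targets were lower after HU in wild type (46.4% of all genes were) and 11 of 16 in Brca2mut/WT (44.6%). In each genotype 1 was past the fold, where 7.79% and 6.04% of genes were past it either way.

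E2F target genes, the replication genes that pRb restrains, were past the fold upwards for 11 of 15 in wild-type basal cells after HU (median 0.70, with 7.79% of genes past it either way) and for 1 of 15 in Brca2mut/WT (0.22, with 6.04%). This list shares genes with the S list, and S cells were 5.08% of wild-type basal control cells and 6.80% after HU, with 8.89% and 13.4% in G2/M. The pools differed as well. Tag 2 made up 8.55% of single-tag wild-type basal cells in control and 51.3% after HU, and tag 4 54.7% and 21.6%. The ratios of this list were not weighted by pool, so the 11 of 15 may not be shared by the pools. In HR+ cells 5 of 14 were past it downwards in wild type and 5 of 14 upwards in Brca2mut/WT, on few cells, where 13.4% and 14.1% of genes were past it either way. Wild-type HR+ cells had 1.70% in S and 11.4% in G2/M in control, and 1.37% and 5.48% after HU. Brca2mut/WT HR+ cells had 0.806% and 2.42% in control, and 4.88% and 6.50% after HU. The part of these shares in the ratios was not tested. Of the HR- luminal ratios 0 of 13 were past the fold in either genotype, with medians of 0.07 and -0.15. Of all genes there, 1.52% were past it in wild type and 1.45% in Brca2mut/WT. No test stands behind these counts.

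Of the cyclin and kinase partners, 8 passed in HR- luminal cells and 1 was past the fold, Ccna2 (cyclin A2), at 8.95 CPM in the Brca2mut/WT control and 5.96 CPM in HU (-0.59). Of all genes in that comparison, 1.45% were past it. In wild-type basal cells 4 of 9 were higher past the fold, where 7.79% of genes were past it either way. G2/M cells were 8.89% of these cells in control and 13.4% after HU. The pocket proteins and E2F factors had 0 of 8 past the fold in HR- luminal cells of either genotype (1.52% of genes in wild type and 1.45% in Brca2mut/WT). They had 1 of 11 past it in wild-type basal cells (7.79% of genes). In wild-type HR+ cells 5 of 11 were lower, where 13.4% of genes were past it either way.

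The genes whose levels ran most like those of a member were found by Pearson's r of log2(CPM + 1) over the 12 sums of lineage and library, among 9885 genes. The points share libraries and depth, and the 4 points of a lineage are not independent. Cdkn1a ran with Atp6v0b (r = 0.97) and Derl2 (0.96), Cdkn1b with Zfp7 (0.93) and Pdk1 (0.89), and Cdkn2a with Mdm2 and Cdc34 (0.92 each). Cdkn2b ran with Taf12 and Fam57a (0.98 each), Cdkn2c with Wwp1 and Tbc1d4 (0.98 each), and Cdkn2d with Ago2 and Ttf1 (0.96 each). Rb1 ran with 4931406C07Rik and Flvcr2 (0.99 each), Ccnd1 with Arhgdig (0.95) and Scamp3 (0.94), and Ccnd2 with Gsta4 (0.99) and Rcn1 (0.98).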

How the data were processed

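The authors counted UMIs per gene and cell with Cell Ranger (6.0.2 in the submitters' processing notes, 6.1.1 in the matrix header) and deposited the counts, whole numbers without normalization, for 4 libraries of mouse mammary organoids, 1 per condition, with 4 antibody tags each. The tags were left out of gene totals. Reads were aligned to mm10 (GRCm38), per the submitters' processing notes and the study's methods, and the annotation release behind the gene list was not settled. Coordinates are from GENCODE M21 on GRCm38, and sequences from RefSeq on GRCm38.p6, which held 6 of the 10 members; bases inside the gene's annotated exons were trimmed. The 10 members and all gene lists were chosen with earlier results of these data known.

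The filter kept cells that had 1000 to 6000 detected genes and a mitochondrial share under 5%. Per cell, basal meant Krt14 of at least 500 CPM with Areg under 300, HR+ luminal Areg of at least 300 with Krt14 under 500, and HR- luminal both under 300. Of the kept cells, 457 fell between these limits and 109 met both of the first 2. A cell belonged to a tag pool with at least 100 tag UMIs, 0.7 or more of them on 1 tag, and pools of at least 20 cells were used. No doublet caller was run, and cells with 2 or more tags (148) were left out in an alternative. S cells had an S-gene sum of at least 1000 CPM and a G2/M sum below it, and G2/M cells a G2/M sum of at least 1000 CPM.

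Counts were summed by lineage and library and scaled by the total to CPM. Levels have exact Poisson, shares exact Clopper-Pearson and ratios exact binomial 95% intervals. With 1 library per condition no test was made. Backgrounds count genes with a mean of at least 5 CPM over the 4 libraries of a lineage. On simulated counts for wild-type HR- luminal cells (9350 genes), 100 of 100 genes changed 2-fold were past the fold and 0 of 9150 unchanged genes. For Brca2mut/WT basal cells (9749 genes), 99 of 100 and 103 of 9549 were. The simulated counts held counting error only, with no differences between mice or tag pools. They therefore do not give the error rate of the fold calls in these data. The named genes were the members, up to 4 genes per pathway list with the greatest HR- luminal ratio past the fold, and the 2 genes most like each member. Python 3.11.15, numpy 2.4.6, scipy 1.17.1, pandas 2.3.3 and matplotlib 3.10.9 were used, with edgeR 4.0.16 in R 4.3.3 for TMM scaling only.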

Additional observations from a re-analysis of the deposited data

Results flagged for a closer look

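Of 30 combinations of member and lineage, 4 went in opposite directions after HU in the 2 genotypes, with each counting interval off 0. The share of all gene and lineage pairs that did so was not counted, so the 4 cannot be called more than usual. With 1 library per condition the difference between the genotypes was not tested. Cdkn1a in HR+ luminal cells had a log2 ratio of HU to control of 0.16 in wild type and -0.33 in Brca2mut/WT, a difference of -0.49. Cdkn2a in the same cells had 0.28 and -0.45, a difference of -0.72, and the 2 wild-type pools of at least 20 cells went opposite ways. Rb1 in HR- luminal cells had -0.35 and 0.15, a difference of 0.50, and the same-tag pools went both ways in each genotype. Ccnd1 in HR- luminal cells had 0.30 and -0.20, a difference of -0.50, with 4 of 4 same-tag pairs higher after HU in wild type and 1 of 4 in Brca2mut/WT.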

How the results depend on the processing

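The count of members past the fold in wild type, 8 of 30, was 3 with no upper limit on genes and under 10% mitochondrial UMIs, 5 with tag pools of equal weight at a tag share of 0.9, and 1 at 2-fold. In Brca2mut/WT, 5 of 30 was 8 with the lineage cutoffs doubled, 8 with tag pools of equal weight (9 at tag shares of 0.5 and 0.9), and 2 at 2-fold. The count of members with 1 highest lineage, 7, was 4 with equal pools at a tag share of 0.5 and, chosen after seeing the data, 4 in all of the 6 pools. The ratio of Cdkn2c in Brca2mut/WT HR+ cells was -0.14 without tag pool 4 and -0.0018 with cells of equal weight. That of basal Ccnd2 was 0.26 in wild type and 0.058 in Brca2mut/WT without tag pool 4, and, in pools compared one by one (chosen after seeing the data), 0.48 and 0.58 for tag 1 and 0.21 and 0.19 for tag 3. The median S ratio of Cdkn1a was 0.035 with the cycle cutoffs doubled. The causes of these were not tested. Of 54 ratios, 54 moved by less than their interval with cells of at least 10000 UMIs or without cells of 2 or more tags, 53 with TMM scaling, and 25 with no upper gene limit and under 10% mitochondrial UMIs together. The number was 46 with the lineage cutoffs doubled and 44 in cells low in S and G2/M genes. It was 32 with tag pools of equal weight and 33 with cells of equal weight, where 1 reversed. Leaving out 1 tag pool gave 27 to 39, and 3 reversed without tag pool 4. In pools of a single tag it was 13 of 36, 7 of 27, 9 of 36 and 6 of 36 for tags 1 to 4, with 2 reversed for tag 1 and 2 for tag 3. No paired analysis was possible because each condition was 1 library. HR+ cells numbered 123 to 176 a library, and their pool values rest on pools with tags 2 and 4 in wild type and tag 4 in Brca2mut/WT.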
